A study of Mus musculus with 3 samples.

Results

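Metabotropic glutamate receptor genes were followed in maps of 5-methylcytosine (5mC) from mouse heart muscle cells. The 7 genes were Grm5, Grm2, Grm3, Grm4, Grm6, Grm7 and Grm8, of 21887 protein-coding genes in the RefSeq annotation of mouse build mm10 (GRCm38). They were named by symbol, and a 5mC peak was counted for a gene when its midpoint lay between the annotated start and end of that gene. The family was chosen by the TAC and Sham peak numbers of Grm5 in these same libraries, so the peak numbers below describe the genes and are not independent evidence. No test was run.

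The maps came from methylated DNA immunoprecipitation sequencing (MeDIP-seq), in which an antibody pulls down DNA fragments that carry 5mC. Isolated cardiomyocytes were the source, taken from C57Bl6/J males of 8 weeks. The TAC library followed 1 week of pressure overload, the state made by narrowing the aorta, and the Sham library followed the control operation. An Input library without antibody served the authors' peak calling. Each group had 1 library, and the labels do not say whether it pools animals. The spread between replicates is therefore unknown, and each difference is one between a pair of libraries. In such DNA a different mix of cells and a different methylation within cells cannot be told apart. A peak marks enrichment over input and is not a methylation level.

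The receptors of this family are coupled to G proteins and are activated by glutamate, the main excitatory transmitter of the brain. Grm5 encodes a group I receptor, which acts through Gq proteins and phospholipase C. Grm2 and Grm3 encode group II receptors, and Grm4, Grm6, Grm7 and Grm8 group III receptors, which inhibit adenylyl cyclase through Gi and Go proteins. They are known chiefly from neurons, and Grm6 from the ON bipolar cells of the retina.

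The authors' lists held 162107 TAC and 135886 Sham peaks, from 14658177 and 12585289 tags, with 34.67% of tags in peaks in TAC and 29.88% in Sham, per the file headers. Over all protein-coding genes the summed numbers were 69140 TAC and 64508 Sham peaks, a ratio of 1.07 (95% interval 1.06 to 1.08). Intervals here and below are exact binomial (Clopper-Pearson), carried from the TAC share to the ratio, and cover counting error only. Tissue identity could not be checked from expression, which was not measured. Marker genes of cardiomyocytes held 59 TAC and 37 Sham peaks over 10 genes, with none in Atp2a2 and Pln, and those of neurons and glia 103 and 99 over 8 genes. The fibroblast list held 13 and 9 over 8 genes, the endothelial list 45 and 46 over 7, and the immune list 24 and 15 over 7, in TAC and Sham. In the fibroblast list Col1a2, Lum and Tcf21 held no peak in either library, and neither did Lyz2 in the immune list. Whether these numbers play a part in those of the receptor genes was not tested.

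All 7 receptor genes held peaks in both libraries. Together they held 136 TAC and 77 Sham peaks, a ratio of 1.77 (1.33 to 2.37). Without Grm5 the other 6 genes held 105 TAC and 69 Sham peaks, a ratio of 1.52 (1.11 to 2.09). Grm5, Grm3, Grm7 and Grm8 held more peaks in TAC, Grm4 held fewer in TAC, and Grm2 and Grm6 held equal numbers. Of the 5 members with at least 5 peaks in both libraries together, 4 held at least 1.5 times as many in TAC and none at least 1.5 times as many in Sham. Among the 6573 protein-coding genes with at least 5 peaks the shares past that fold were 24.0% toward TAC and 17.1% toward Sham. At 2-fold it was 3 of the 5 members toward TAC and none toward Sham, beside 10.8% and 5.61% of those genes. The same 5 members also have at least 10 peaks, a class in which 17.8% of genes were past 1.5-fold toward TAC and 10.3% toward Sham. All 4 members over 200 kb were past 1.5-fold toward TAC, beside 28.8% of genes of that length with at least 5 peaks. More TAC than Sham peaks, by any margin, were held by 4 of the 7 members and by 39.7% of genes with a peak. The contrast that picked the family is the one counted here, so nothing is read from those gaps.

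**Figure D1:**
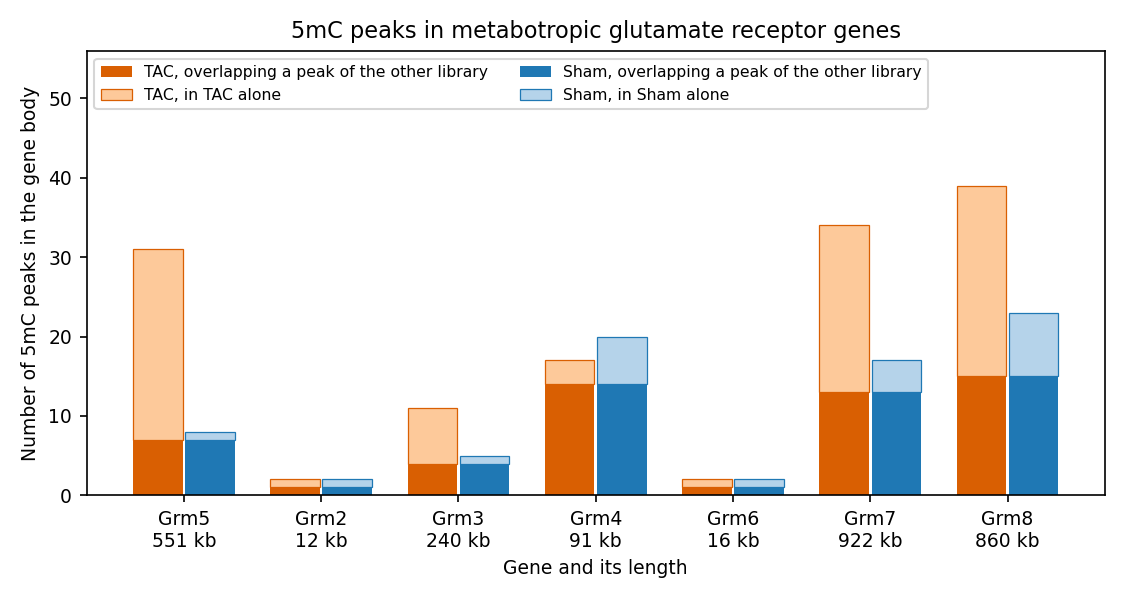
Number of 5mC peaks (vertical axis) in each receptor gene, with its length, in the TAC library (orange, left bar) and the Sham library (blue, right bar). Dark parts are peaks that overlap a peak of the other library and light parts are peaks of that library alone. Grm5, Grm3, Grm7 and Grm8 have tall light parts in TAC, and Grm4 has nearly equal bars.

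Grm5, the group I gene, lies on chromosome 7 (87583981 to 88135063, 551 kb). It held 31 TAC and 8 Sham peaks, a ratio of 3.88 (1.74 to 9.76). Nearly all Sham peaks had a TAC counterpart. By an overlap of at least 1 bp, 7 of the 31 TAC peaks and 7 of the 8 Sham peaks were shared, which left 24 TAC peaks and 1 Sham peak alone. Unshared TAC peaks had a median gap of 37.2 kb to the nearest Sham peak and a shortest gap of 2.62 kb. With only 8 Sham peaks in 551 kb, a number that helped choose the family, wide gaps must arise. Nothing is read from them.

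The TAC peaks of Grm5 were spread along the gene, more so toward its lower coordinates. Counted from the lower end, the first 100 kb held 6 TAC and 0 Sham peaks, and the second held 9 and 1. From 200 to 300 kb the numbers were most even, at 5 TAC and 4 Sham peaks. From 300 to 400 kb there were 6 and 1, from 400 to 500 kb 2 and 0, and in the remaining 51 kb 3 and 2, again in TAC and Sham. All 6 stretches thus held more TAC than Sham peaks. The widest stretch free of peaks measured 81.3 kb in TAC and 136 kb in Sham, and both began close to 394 kb from the lower end.

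The shared peaks of Grm5 went both ways in strength. Tag numbers per peak were inferred from the row order of the lists, as explained with the processing. The strongest TAC peak of the gene (87800890 to 87801520) had 36 inferred tags in TAC, and its Sham partner (87800916 to 87801416) had 17. The strongest Sham peak (87825682 to 87826307) had 25 inferred tags in Sham, and its TAC partner (87825649 to 87826149) had 17. Scaled to 10000000 total tags, the median over the 7 shared pairs was 13.6 in TAC and 13.5 in Sham, with 4 pairs higher in TAC and 3 higher in Sham. Over all shared pairs in protein-coding genes the medians were 19.8 in TAC and 19.1 in Sham.

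Among the group II genes, Grm3 resembled Grm5 on a smaller scale and Grm2 did not. Grm3 lies on chromosome 5 (9485236 to 9725352, 240 kb) on the minus strand. It held 11 TAC and 5 Sham peaks, a ratio of 2.20, but the interval (0.705 to 8.08) spans an even split. In Grm3, 4 peaks were shared, 7 were in TAC alone and 1 in Sham alone. Its strongest shared peak in the Sham list (9570165 to 9570919) had 70 inferred tags in Sham, and the TAC partner (9569957 to 9570665) had 44. Another (9628702 to 9629328 in TAC) had 51 in TAC and 54 in Sham. Unshared TAC peaks of Grm3 were weaker, at 13 to 23 inferred tags.

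Grm2 lies on chromosome 9 (106644534 to 106656109, 11.6 kb) on the minus strand and held 2 TAC and 2 Sham peaks. One pair was shared, at 106650688 to 106651314 in TAC and 106650661 to 106651288 in Sham, with 41 inferred tags in TAC and 78 in Sham. The other Sham peak (106647614 to 106649110) was 1497 bp wide, and the other TAC peak (106646929 to 106647429) ended 0.185 kb from it. These do not overlap, and would count as shared if 1000 bp were added on either side. With 4 peaks in all, the interval of the ratio (0.0725 to 13.8) sets almost no limit.

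The group III genes fell into a pair of very long genes with more TAC peaks and a pair of shorter ones without. Grm7, the longest member, lies on chromosome 6 (110645349 to 111567230, 922 kb) on the plus strand. It held 34 TAC and 17 Sham peaks, a ratio of 2.0 (1.09 to 3.82). With the TAC list held to the number of rows of the Sham list, Grm7 held 19 TAC and 17 Sham peaks, and the interval of the ratio (1.12, 0.550 to 2.29) then spans an even split. Grm7 had 13 shared peaks, with 21 in TAC alone and 4 in Sham alone. More TAC than Sham peaks were counted in 9 of its 10 stretches of 100 kb, and the last stretch, of 21.9 kb, held none of either. Per stretch with peaks the numbers were 3 to 5 in TAC and 1 to 2 in Sham. The larger TAC numbers in the full lists were thus spread along Grm7.

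Grm8 lies on the same chromosome (27275121 to 28135146, 860 kb) on the minus strand and held 39 TAC and 23 Sham peaks. Its ratio was 1.70, with an interval (0.988 to 2.97) that just holds an even split. It had 15 shared peaks, 24 in TAC alone and 8 in Sham alone. Of its 9 stretches 7 held more TAC peaks and 2 held equal numbers. The uppermost 60 kb, where transcription of this minus-strand gene starts, held 3 TAC and 0 Sham peaks. The strongest peak of Grm8 in TAC alone (27767529 to 27768453, 925 bp) had 36 inferred tags, as many as the strongest shared TAC peak of Grm5.

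Grm4, on chromosome 17 (27422387 to 27513826, 91.4 kb), was the member with the most peaks per length in both libraries. It held 17 TAC and 20 Sham peaks, a ratio of 0.850 (0.418 to 1.71), and 14 of each were shared. Its strongest peak in both lists (27455489 to 27457229 in TAC, 27455510 to 27456976 in Sham) had 160 inferred tags in TAC and 102 in Sham. Another (27466867 to 27468148 in TAC) had 135 in TAC and 68 in Sham. One went the other way, with 48 inferred tags in TAC (27425862 to 27426796) and 96 in Sham (27425403 to 27426815). Over the 14 shared pairs of Grm4, 6 were higher in TAC and 8 in Sham after scaling to total tags.

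Grm6, on chromosome 11 (50850369 to 50866208, 15.8 kb) on the plus strand, held 2 TAC and 2 Sham peaks. The shared pair (50859673 to 50860299 in TAC, 50859468 to 50860272 in Sham) had 70 inferred tags in TAC and 116 in Sham. The unshared ones were weak, with 12 inferred tags in TAC (50863168 to 50863668) and 13 in Sham (50852207 to 50852707).

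**Figure D2:**
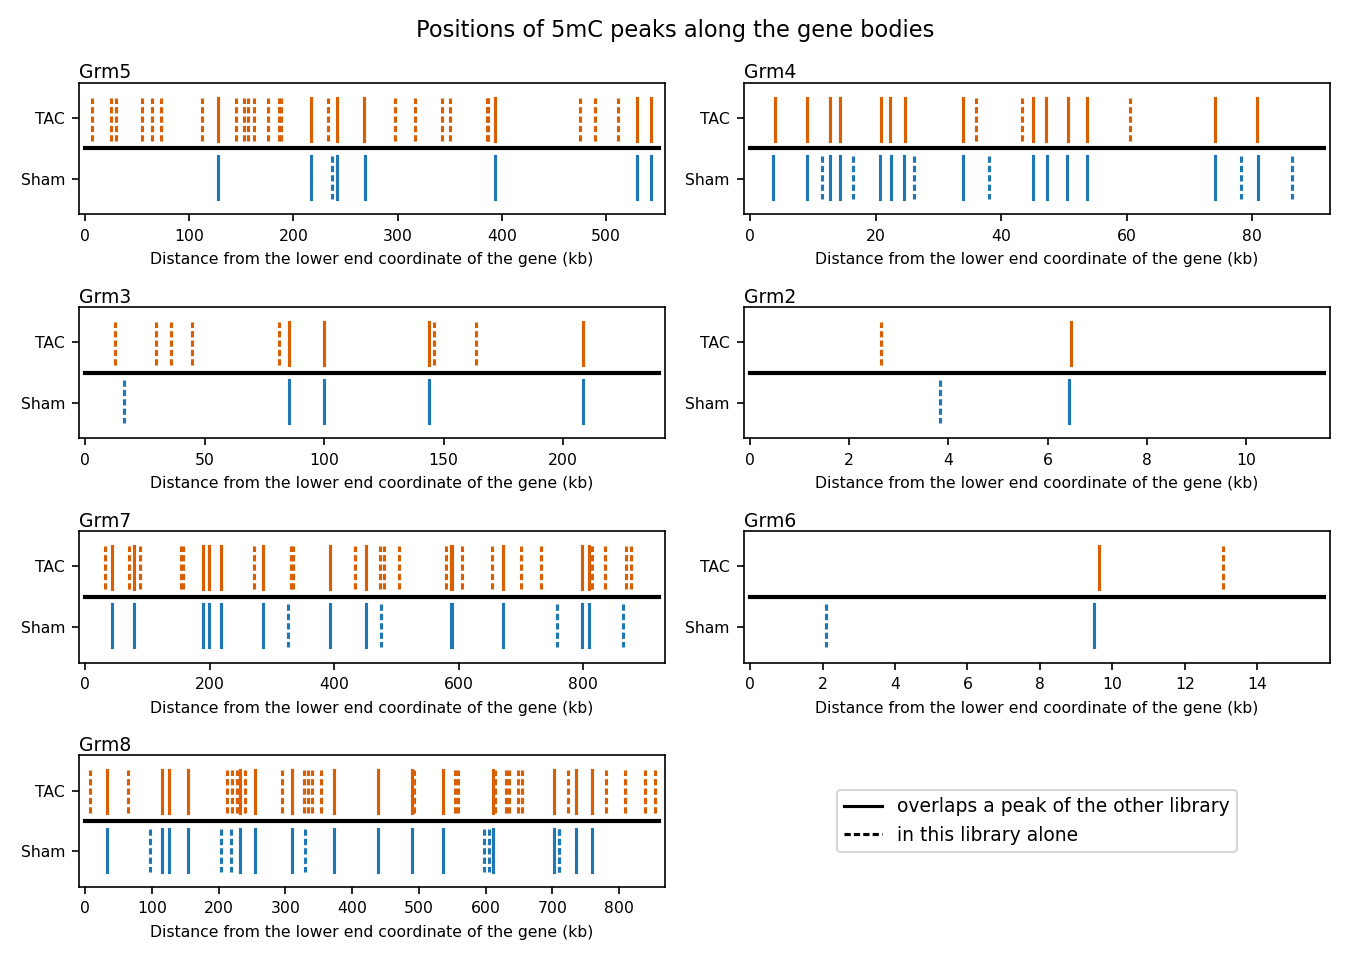
Positions of peak midpoints along the 7 gene bodies, in kb from the lower end coordinate of each gene, with TAC ticks (orange) above the gene line and Sham ticks (blue) below it. Solid ticks overlap a peak of the other library and dashed ticks do not. In Grm5 7 of 8 Sham ticks and in Grm7 13 of 17 face a TAC tick, and dashed TAC ticks lie between them.

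Whether the starts of the genes carried peaks was read from RefSeq promoter windows (build GRCm38.p6), which run from 250 bp before to 50 bp after an annotated transcript start. The table held 8 windows for 5 members, and Grm4 and Grm5 had no entry. Shown are a window rich in CG, the dinucleotide at which 5mC mainly occurs in mammals, one with an intermediate number and one that is poor in it. Each is written from 5′ to 3′ on the strand of the gene, with CG in capitals. The Grm8 window is chr6:28135097-28135396 on the minus strand, that of Grm3 chr5:9725303-9725602 on the minus strand, and that of Grm6 chr11:50850435-50850734 on the plus strand.
Grm8: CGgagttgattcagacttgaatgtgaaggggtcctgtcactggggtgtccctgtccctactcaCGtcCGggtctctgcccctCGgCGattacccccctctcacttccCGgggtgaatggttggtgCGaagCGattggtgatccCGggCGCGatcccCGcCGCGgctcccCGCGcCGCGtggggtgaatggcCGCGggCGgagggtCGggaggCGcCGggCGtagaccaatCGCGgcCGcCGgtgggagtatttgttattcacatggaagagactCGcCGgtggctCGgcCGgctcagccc
Grm3: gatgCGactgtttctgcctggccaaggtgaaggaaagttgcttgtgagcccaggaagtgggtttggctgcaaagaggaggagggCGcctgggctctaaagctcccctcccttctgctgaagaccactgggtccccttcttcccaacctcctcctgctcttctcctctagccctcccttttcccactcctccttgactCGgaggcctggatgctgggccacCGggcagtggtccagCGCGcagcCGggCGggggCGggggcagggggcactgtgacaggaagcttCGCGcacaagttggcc
Grm6: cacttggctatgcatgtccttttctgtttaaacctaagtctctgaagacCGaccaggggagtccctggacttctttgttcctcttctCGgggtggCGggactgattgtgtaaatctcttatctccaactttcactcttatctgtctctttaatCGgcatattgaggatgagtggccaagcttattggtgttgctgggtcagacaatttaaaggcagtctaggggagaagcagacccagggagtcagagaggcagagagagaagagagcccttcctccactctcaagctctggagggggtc

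None of the 8 windows overlapped a peak in either library, which by a floor of 3 counts allows a share of up to 37.5%. The windows of 1 gene are not independent, and both Grm7 windows overlap each other. That is also the common state. Of all 32851 windows 4.86% overlapped a TAC peak and 4.89% a Sham peak, and of the 11378 windows with at least 15 CG 2.37% did in TAC and 1.92% in Sham. The Grm8 window held 33 CG, a number reached by 8.56% of all windows, that of Grm3 11 (41.4%) and that of Grm6 4 (68.6%). The CG motif reads the same on both strands, so its count does not depend on the strand. From the Grm8 window the nearest TAC peak was 5.54 kb away and the nearest Sham peak 52.6 kb. For Grm3 these distances were 3.06 kb in TAC and 2.96 kb in Sham, and for Grm6 6.95 kb in TAC and 1.47 kb in Sham. The 5mC peaks of these members therefore lay within or beyond the gene bodies and not on the windows at their starts. The annotation used gives no exons, so exonic and intronic peaks were not separated.

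The shares of peaks found in both libraries lay further apart in this family than in genes at large. Of the 136 TAC peaks 55 overlapped a Sham peak (40.4%, 32.1 to 49.2), and of the 77 Sham peaks 55 overlapped a TAC peak (71.4%, 60.0 to 81.2). For all peaks in protein-coding genes the shares were 59.9% in TAC and 63.8% in Sham. The Sham share of the family was above the general one and the TAC share below it, although the Sham interval holds the general value. Such a gap was not particular to this family. Ionotropic glutamate receptor genes, taken up below, had 50.4% in TAC and 72.8% in Sham, and the cardiomyocyte list 50.8% and 81.1%. The fibroblast list (53.8% and 77.8%) and the immune list (41.7% and 66.7%) also had it, on few peaks. Shares lay closer in the signalling and transport genes (61.7% and 63.2%), the neuron and glia list (68.9% and 71.7%) and the endothelial list (62.2% and 58.7%). The family had 81 peaks in TAC alone and 22 in Sham alone. Their ratio was 3.68 (2.28 to 6.20), against 1.19 (1.17 to 1.21) for protein-coding genes at large. Without Grm5 there were 57 in TAC alone and 21 in Sham alone, a ratio of 2.71 (1.62 to 4.71). The ionotropic genes had 183 in TAC alone and 69 in Sham alone, a ratio of 2.65. For the cardiomyocyte list it was 29 and 7 (4.14), and for the signalling and transport genes 143 and 134 (1.07). The family numbers come from the contrast that picked the family and are a description.

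The 4 members over 200 kb and the 3 shorter ones were also summed apart, a split made after the values were seen. Grm5, Grm3, Grm7 and Grm8 held 115 TAC and 53 Sham peaks, a ratio of 2.17 (1.55 to 3.06), and without Grm5 84 and 45, a ratio of 1.87 (1.28 to 2.74). Grm2, Grm4 and Grm6 held 21 TAC and 24 Sham peaks, a ratio of 0.875 (0.463 to 1.64). The long members were sparsely covered, with 3.69 to 5.63 TAC and 1.45 to 2.67 Sham peaks per 100 kb. The short members held 12.6 to 18.6 TAC and 12.6 to 21.9 Sham peaks per 100 kb. Over all protein-coding genes the densities were 6.58 in TAC and 6.14 in Sham. Long members were thus below this general density in both libraries, and further below it in Sham. Genes of 500 kb or more, a class also made after the values were seen, held 5.54 TAC and 4.20 Sham peaks per 100 kb. In that class Grm7 had 3.69 and 1.84, Grm8 4.53 and 2.67, and Grm5, whose numbers chose the family, 5.63 and 1.45. Grm3 had 4.58 and 2.08, beside 6.81 and 6.19 for genes of 200 to 500 kb.

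Peaks of the family stood low in both lists. The row fraction of a peak is its row divided by the number of rows of its list, so that 0 is the top and the median over a whole list is 0.5. Family peaks had a median row fraction of 0.644 in the TAC list (quartiles 0.408 and 0.786) and of 0.656 in the Sham list (0.359 and 0.824). For peaks in protein-coding genes the medians were 0.489 in TAC and 0.476 in Sham. The 4 long members had medians of 0.676 in TAC and 0.685 in Sham, and the 3 short members 0.284 and 0.249. Unshared peaks of the family stood lower than shared ones, with medians of 0.720 and 0.477 in the TAC list and 0.754 and 0.607 in the Sham list. By gene, the medians ran in TAC from 0.284 in Grm4 to 0.783 in Grm7, and in Sham from 0.121 in Grm2 to 0.820 in Grm8. Row fractions are read here within a list only.

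Many peaks of the family had the commonest width of the lists, 501 bp. The peak size set for the calling was 500, so this is not read as a measured width. In the 4 long members 87 of 115 TAC peaks (75.7%) and 43 of 53 Sham peaks (81.1%) had this width, against 59.3% in TAC and 57.4% in Sham for protein-coding genes. In the 3 short members it was 7 of 21 TAC and 7 of 24 Sham peaks.

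Sharing was also counted apart for peaks with a row fraction up to 0.5 and above it. Up to 0.5, 18 of 35 TAC peaks of the 4 long members (51.4%, 34.0 to 68.6) were shared, against 80.8% of TAC peaks in protein-coding genes. In the Sham list it was 10 of 13 (76.9%, 46.2 to 94.96), against 81.4%. Above 0.5, 21 of 80 TAC peaks (26.2%) and 29 of 40 Sham peaks (72.5%, 56.1 to 85.4) were shared, against 38.1% in TAC and 44.6% in Sham. These percentages include Grm5 and divide the shared peaks by the TAC and Sham numbers that chose the family, so they are a description and nothing is read from the gaps.

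**Figure D3:**
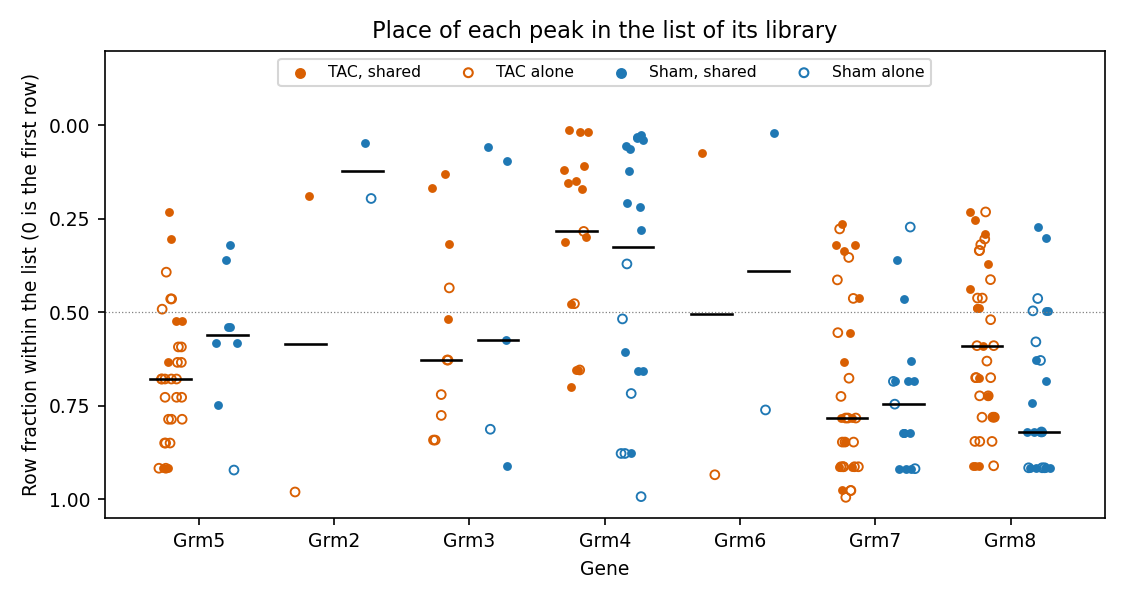
Row fraction of every peak (vertical axis, 0 at the top is the first row of a list) by gene, for TAC (orange, left) and Sham (blue, right), with filled points for shared peaks, open points for peaks of 1 library alone and a black line at the median. Most peaks of Grm5, Grm7 and Grm8 lie below the middle of their list, and Grm4 has many near the top.

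The flanks of the long members also held more TAC peaks. In the 500 kb on either side of Grm5 there were 39 TAC and 15 Sham peaks, a ratio of 2.60 (1.40 to 5.08), with 12 and 3 below the gene and 27 and 12 above it. The flanks of Grm3 held 44 TAC and 26 Sham peaks (1.69, 1.02 to 2.86), those of Grm7 52 and 33 (1.58, 1.00 to 2.52) and those of Grm8 48 and 30 (1.60, 0.993 to 2.62). Around the short members the numbers were near even. Grm2 had 74 TAC and 64 Sham flank peaks (1.16), Grm4 88 and 105 (0.838) and Grm6 96 and 96. For each of the 7 members the interval of the gene body and that of its flanks overlap.

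Over all peaks of the lists the ratio of TAC to Sham was 1.19 (1.18 to 1.20). Summed over the family, the flanks held 441 TAC and 369 Sham peaks, a ratio of 1.20 (1.04 to 1.38), which is near that general value. Without Grm5 they held 402 and 354, a ratio of 1.14, and the interval (0.982 to 1.31) then spans an even split. Flanks of the 4 long members held 183 and 104 (1.76, 1.38 to 2.26), and flanks of the 3 short ones 258 and 265 (0.974, 0.817 to 1.16). The family sum is therefore dominated by the peak-rich surroundings of Grm2, Grm4 and Grm6. Their flanks contain 27, 22 and 20 other protein-coding genes, while those of Grm5 and Grm3 contain 4 each, those of Grm8 6 and those of Grm7 none. Within the flanks of Grm5, the pigment enzyme gene Tyr held the most peaks of any protein-coding gene, with 4 in TAC and 2 in Sham.

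**Figure D4:**
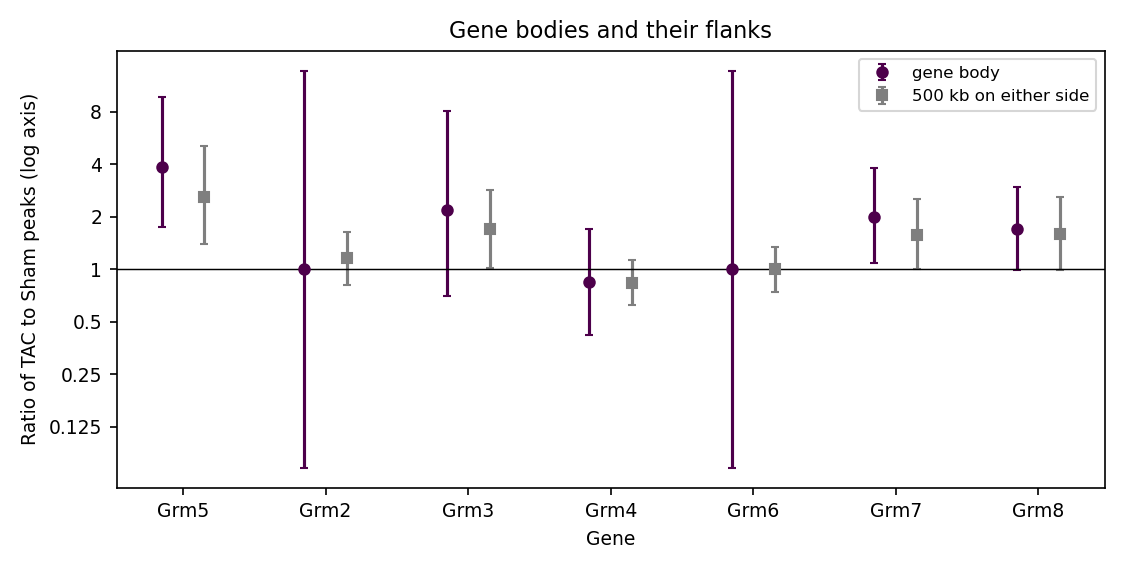
Ratio of TAC to Sham peaks (log axis) for each gene body (purple circles) and the 500 kb on either side (grey squares), with exact 95% intervals. Bodies and flanks of Grm5, Grm3, Grm7 and Grm8 lie above 1 and those of Grm4 below it, and the intervals of Grm2 and Grm6 bodies are very wide.

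Peak numbers by gene length stand beside these, in classes made after the values were seen. The 227 protein-coding genes of 500 kb or more held 10686 TAC and 8110 Sham peaks, a ratio of 1.32 (1.28 to 1.36), and 44.5% of them held at least 1.5 times as many TAC peaks. The 763 genes of 200 to 500 kb had a ratio of 1.10 (1.08 to 1.13) and the 11848 genes under 20 kb one of 0.954 (0.921 to 0.988). The intervals of Grm7 and Grm8 hold the ratio of the genes of 500 kb or more. Grm3 lies in the class of 200 to 500 kb, and its interval holds the ratio of that class. These 3 genes together mix both classes. Their interval (1.28 to 2.74) holds 1.32 near its lower end and does not hold 1.10. For Grm5, whose peak numbers chose the family, no such comparison is made. The genes nearest to a member in TAC and Sham peak numbers are named as a description. Peak numbers this high are mostly reached by long genes, so nothing is read from the length of these. For Grm5 the matched numbers are also those that chose the family. Its nearest genes were the diacylglycerol kinase gene Dgkb (31 TAC and 8 Sham peaks, 754 kb) and the glycosyltransferase gene Galnt13 (27 and 10, 682 kb). For Grm7 the nearest were the dystrophin gene Dmd (35 and 17) and the phosphodiesterase gene Pde4b (33 and 18). For Grm8 they were the adhesion gene Negr1 and the netrin receptor gene Dcc, with 39 TAC and 24 Sham peaks each. Likeness was the distance between log2(peaks + 1) values over the 2 libraries, 0 for Dgkb and at most 0.35 for the others.

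**Figure D5:**
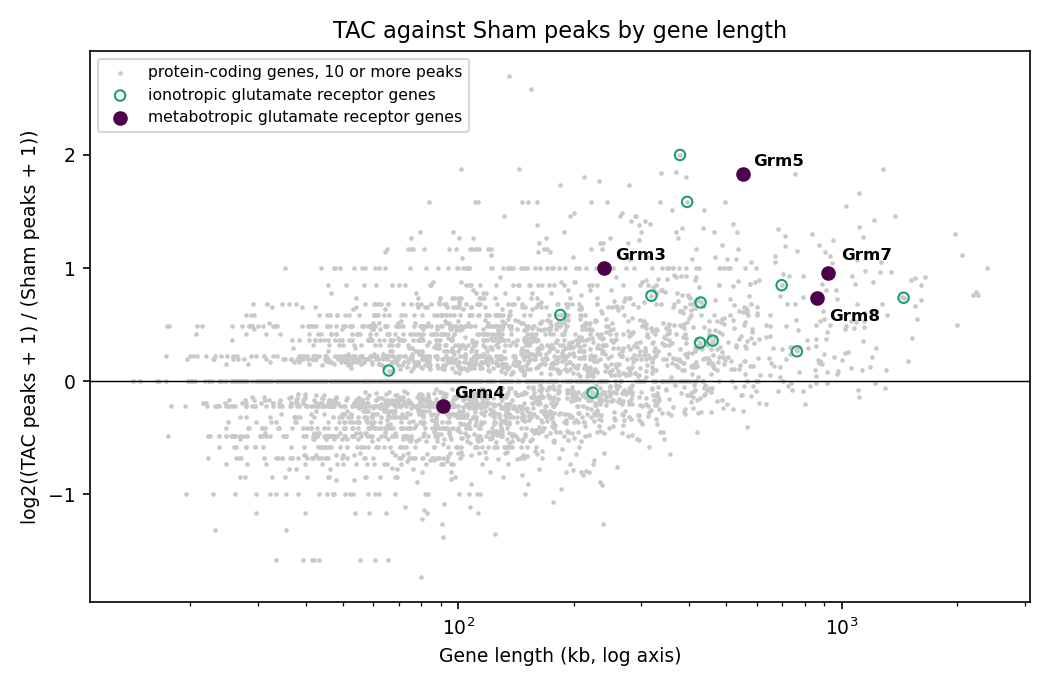
log2 of (TAC peaks + 1) over (Sham peaks + 1) against gene length (log axis) for protein-coding genes with at least 10 peaks in both libraries together (grey), ionotropic receptor genes (green rings) and the members that reach 10 peaks (purple). Grm5, Grm7, Grm8 and Grm3 lie above 0 at lengths of 240 kb and more, and Grm4 lies just below 0 at 91.4 kb.

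The ionotropic glutamate receptors, the ligand-gated channels for the same transmitter, gave a similar count. Their 18 genes held 369 TAC and 254 Sham peaks, a ratio of 1.45 (1.23 to 1.71), and 14 held more peaks in TAC, 3 more in Sham and 1 equal numbers. The interval overlaps that of the metabotropic genes with and without Grm5. Of 15 ionotropic genes with at least 5 peaks, 9 held at least 1.5 times as many in TAC and none the reverse. Among all protein-coding genes with at least 5 peaks the shares were 24.0% toward TAC and 17.1% toward Sham. Toward TAC the share was 28.8% in such genes of at least 200 kb and 44.5% in those of 500 kb or more. The highest TAC shares were in the AMPA receptor gene Gria4 (11 TAC and 2 Sham peaks) and the kainate receptor gene Grik1 (20 and 6), and the lowest in Grik3 (26 and 28) and Grik5 (15 and 14). Gria1 held 26 TAC and 15 Sham peaks and Grik2 26 and 14. The NMDA receptor gene Grin2a held 33 and 20, and Grin2b 40 and 31. Grik4 held 42 TAC and 33 Sham peaks, and the delta receptor gene Grid1 41 and 34.

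The partners of the receptors in signalling and glutamate transport were even between the libraries, but were also shorter genes. Their median length was 50.2 kb, against 240 kb for the members and 298 kb for the ionotropic genes. All protein-coding genes of 20 to 100 kb had a ratio of 1.02 (0.999 to 1.04). Whether length plays a part in the difference from the receptors was not tested. The 44 partner genes held 373 TAC and 364 Sham peaks, a ratio of 1.02 (0.885 to 1.19). More TAC peaks were held by 16 of them, more Sham peaks by 17, equal numbers by 8 and no peak by 3 (Gnai2, Gnb3 and Gng13). Of 29 with at least 5 peaks, 5 were past 1.5-fold toward TAC and 5 toward Sham, beside 24.0% and 17.1% of all such protein-coding genes. In the Gq pathway of group I receptors, Gnaq held 12 TAC and 12 Sham peaks, and Itpr1, the IP3 receptor gene, 10 and 10. The phospholipase genes Plcb1 and Plcb4 parted, with 36 TAC and 21 Sham peaks in Plcb1 and 24 and 38 in Plcb4. Gnao1, which encodes the Go protein used by group II and III receptors, held 16 and 22. The scaffold genes Shank2, Dlgap1 and Shank3 held 45 and 39, 45 and 42, and 11 and 9, and Elfn2, a synaptic adhesion gene, 12 and 10. Grk3, a receptor kinase gene, held 27 TAC and 25 Sham peaks. Among the partners of Grm6 in retinal bipolar cells Rgs7 held 23 and 20. Among glutamate transporters Slc1a2 held 9 TAC and 6 Sham peaks, Slc1a3 10 and 10, and Slc1a7 7 and 11.

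At a nearly equal depth-scaled threshold, with at least 13 inferred tags in TAC and 11 in Sham (8.87 and 8.74 per 10000000 total tags), Grm5 held 27 TAC and 8 Sham peaks, a ratio of 3.38 (1.49 to 8.60). The family without Grm5 held 88 TAC and 68 Sham peaks at that threshold, and its ratio of 1.29 (0.932 to 1.80) then spans an even split. All protein-coding genes had 0.974 and those of 500 kb or more 1.19 there. The long members without Grm5 held 69 TAC and 45 Sham peaks, a ratio of 1.53 (1.04 to 2.28), and the short members 19 and 23. With the TAC list held to the Sham number of rows, the long members without Grm5 held 60 and 45 (1.33, 0.891 to 2.01), which spans an even split. At least 20 inferred tags per 10000000 left them 9 and 5 (1.8, 0.542 to 6.84), which also spans it. Row fractions up to 0.5 (29 and 11, 2.64) and merging within 3000 bp (79 and 43, 1.84) gave them intervals above an even split.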

How the data were processed

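MeDIP-seq peak lists of a TAC and a Sham library of mouse cardiomyocytes were used. The Input library entered only through the authors' calls. The submitters' processing notes name the build mm10 and the tools HOMER 4.5, Picard and BWA 0.7.4-r385. The authors called peaks for each library against a shared input in histone style, at 4-fold over input, per the file headers, with tag thresholds of 12 in TAC and 11 in Sham. The deposited score is 1 for every peak, and the other deposited columns hold positions.

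Peaks were assigned to RefSeq genes by midpoint and shared at 1 bp. Each list runs through blocks (414 in TAC, 352 in Sham) sorted by position. Giving the last block 8 tags and each earlier block 1 more yields sums of 99.3% of the tags in peaks of each header. This inferred tag number is not stated by the submitters, and puts 3.25% of peaks in each list below the header threshold. Members and lists were chosen with earlier results of these data known. Named list genes were those with at least 20 peaks, and the 2 highest and 2 lowest TAC shares among genes with at least 10. One gene that this rule names is not reported here. For Grm5, Grm7 and Grm8 the 2 genes nearest in peak numbers were named, and from the Grm5 flanks the gene with the most peaks. The length split and the promoter windows were added after the data were examined. Counting was tested on simulated lists. Python 3.11.15, pandas 2.3.3 and scipy 1.17.1 were used.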

Additional observations from a re-analysis of the deposited data

How the results depend on the processing

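No paired analysis was possible because each group has 1 library and no test was run. Across the settings run for the main results (assignment by 1 bp or with 5000 bp added, rows with a fraction up to 0.5, the TAC list held to the Sham number of rows, 2 thresholds on inferred tags, merging within 3000 bp, covered base pairs, other overlaps and flank sizes, single genes left out), 72 values stayed within the interval or 1.5 times the count of the main value and 1 moved. The intervals of the main values are wide, and a value within them can have an interval that spans an even split. The tally therefore does not show that a larger TAC number is kept. With flanks counted only outside annotated genes the family ratio moved to 1.41 (1.16 to 1.73), against 1.195 in the whole flanks. A ratio over all peaks outside annotated genes is not given beside it, so nothing is read from this move. At the nearly equal threshold the flank ratio was 1.06 (0.919 to 1.23) and with 200 kb on either side 1.10 (0.889 to 1.37), both of which span an even split, and with 1000 kb it was 1.18 (1.07 to 1.304). Over the settings other than leaving genes out, the family ratio ran from 1.33 to 1.87, and without Grm5 from 1.14 to 1.76. With at least 20 inferred tags per 10000000, Grm5 had no Sham peak, so no ratio was formed, and the family held 24 TAC and 18 Sham peaks (1.33, 0.694 to 2.61). Holding TAC to the Sham number of rows gave Grm5 24 TAC and 8 Sham peaks (3.0) and the family without Grm5 79 and 69 (1.14, 0.818 to 1.61), where all protein-coding genes had 0.900. Grm7 held 23 TAC and 17 Sham peaks at the nearly equal threshold (1.35, 0.692 to 2.70). Row fractions up to 0.5 left Grm5 only 6 TAC and 2 Sham peaks (3.0, 0.536 to 30.4), and that interval spans an even split. The same setting left Grm8 16 TAC and 6 Sham peaks (2.67, 0.991 to 8.32) and Grm7 9 and 3 (0.749 to 17.2). At least 20 inferred tags left Grm3 2 and 2. Without Grm5, leaving out Grm7 gave 1.37 (0.941 to 1.99) and leaving out Grm8 1.43 (0.970 to 2.14), so that interval rests on both. Grm2 and Grm6, with 4 peaks each, are limited by counting. Depth per peak is unknown beyond the inferred tags, and no replicate shows how far libraries of 1 group differ.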
